A study of Mus musculus with 8 samples.

Results

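The genes described here encode ligands of the tumour necrosis factor (TNF) superfamily, their receptors, and the adaptors, inhibitors and subunits of the NF-κB pathway that these receptors switch on. They were chosen by symbol: all genes named Tnfsf, Tnfrsf or Traf with a number, plus 15 ligand, receptor and NF-κB genes with other names, which gave 53 of the 54838 genes in the files. Of these, 15 were grouped as ligands, 21 as receptors, 9 as TRAF and IAP (inhibitor of apoptosis) adaptors, 3 as inhibitors and 5 as NF-κB subunits. RNA-seq gave their expression in 7 subclones of 3H3PM cells, with 1 library each, and in 1 library labelled 3H3P. All 8 libraries came from 3H3, a hepatocellular carcinoma line established from a liver tumour of a C57BL/6 MC4R-KO mouse on a high-fat diet and carrying mutant Hras. Cells labelled 3H3P had Trp53 knocked out with CRISPR/Cas9, so the subclones carry that loss as well. The 3H3PM subclones also express ectopic MYC, and each was isolated from a tumour that 3H3PM cells formed in nude mice, which lack most T cells, and was then cultured. The subclones analysed here are numbered 1, 2, 3, 6, 7, 8 and 9. The effects of MYC, of passage through a mouse and of isolating single clones cannot be told apart in the comparison with 3H3P.

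Ligands of the TNF superfamily act as trimers on the cell surface or after release, and cluster their receptors on neighbouring cells. Death receptors recruit caspases, whereas most other receptors bind TRAF proteins, which together with the ubiquitin ligases encoded by Birc2 and Birc3 activate NF-κB. In resting cells IκB proteins hold NF-κB dimers in the cytoplasm, and active NF-κB induces its own inhibitors, such as IκBα and A20. In the liver, TNF and NF-κB signalling shapes inflammation, hepatocyte death and regeneration.

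The libraries held 12838521 to 17987068 expected counts in the subclones and 16855985 in the library labelled 3H3P. Mouse Myc was at 3.57 to 11.6 CPM (counts scaled to library size by TMM) in the subclones, against 85.2 CPM in the library labelled 3H3P. Mouse Myc thus goes against the label, unless the ectopic MYC went uncounted, as its species is not stated in the labels. Trp53, knocked out in both groups, was at 46.7 to 66.6 CPM in the subclones and 212 CPM in the library labelled 3H3P, and a frameshift need not remove the transcript, so its level does not check the knockout. The liver epithelial keratin gene Krt18 was detected in every library, at 38.2 to 100.2 CPM in the subclones and 690 CPM in the library labelled 3H3P, whereas Alb, encoding albumin, was at 0 to 2.08 CPM in the subclones and 3.67 CPM there. The 8 hepatocyte and liver epithelium markers summed to 52.2 to 159 CPM in the subclones and 1878 CPM in the library labelled 3H3P. Of the 6 tested, 4 were called lower and none higher, and 5 had a log2 fold change below 0. The other, Afp, was at 0.319 to 5.95 CPM in the subclones, against 0.311 CPM in that library (log2 fold change 2.33, not called). Leukocytes are a usual source of TNF ligands. Of 16 leukocyte markers 7 had 0 counts in all libraries and 12 stayed under 1 CPM, with 3 counts of Ptprc, the pan-leukocyte gene, over all subclones and 0 in the library labelled 3H3P. The 16 markers summed to 34.1 to 133 CPM in the subclones and 365 CPM in the library labelled 3H3P, where Cd14 made up 349.8 CPM. Of 6 endothelial markers 5 stayed under 1 CPM, with sums of 0.229 to 2.15 CPM in the subclones and 1.99 CPM in the library labelled 3H3P. The 10 fibroblast and stellate markers summed to 104 to 502 CPM in the subclones and 119 CPM there, with 2 of them (Lum and Thy1) at 0 counts in every library. Of the 7 tested, 1 was called lower and 1 higher, and 6 had a log2 fold change above 0. The other, Dcn, had 1 count over the subclones, against 116 CPM in the library labelled 3H3P (edgeR adjusted p = 4.23e-06, for a gene above the filter's level there alone). Pdgfrb, called higher, was at 94.4 to 143 CPM in the subclones, against 0.747 CPM there (adjusted p = 6.57e-05). Pdgfra was at 2.13 CPM in the lowest and 349 CPM in the highest subclone, against 0.436 CPM there, and was not called. Mitochondrial genes took 1.97% to 2.31% of counts in the subclones and 3.18% in the library labelled 3H3P. The part of these differences in the results below was not tested.

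Most members that changed were lower in the subclones, with at least 1 in each of the 5 roles. Among them were Tnfrsf1b, encoding TNF receptor 2, in Birc3 and Birc2, encoding the cIAP ubiquitin ligases, in the ligand gene Ltb and in the feedback inhibitor gene Tnfaip3. The main TNF receptor gene Tnfrsf1a, the lymphotoxin receptor gene Ltbr and most Traf genes did not pass the test. Of the 53 members 39 passed the filter on low counts and were tested, and 14 (35.9%) were called by edgeR's quasi-likelihood test at an adjusted p under 0.05, against 19.1% of all 14634 genes tested. Higher in the subclones were 2 members (5.13%), against 7.33% of all genes, and lower were 12 (30.8%), against 11.8%. The members were chosen with earlier results of these data known, so these shares describe them and support nothing about the pathway. The median log2 fold change was −0.56 over the 39 tested members and 0.03 over all genes tested. Tnfrsf13c had 0 counts in the library labelled 3H3P. Setting it at its bound could not move the members' median, because the fitted value and the bound both lie above it. The lone 3H3P library lay outside the range of the 7 subclones for 28 members (71.8%), against 57.4% of all genes. Of the tested members, 35 reached the filter's level of 0.651 CPM in at least 1 library of both groups, 3 in the subclones alone and 1 in the library labelled 3H3P alone, and a gene that passes through its high group alone had to differ. In a bulk library, fewer cells expressing a gene and less RNA per cell cannot be told apart. The comparison rests on 1 library of 3H3P, whose own variation could not be measured.

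**Figure D1:**
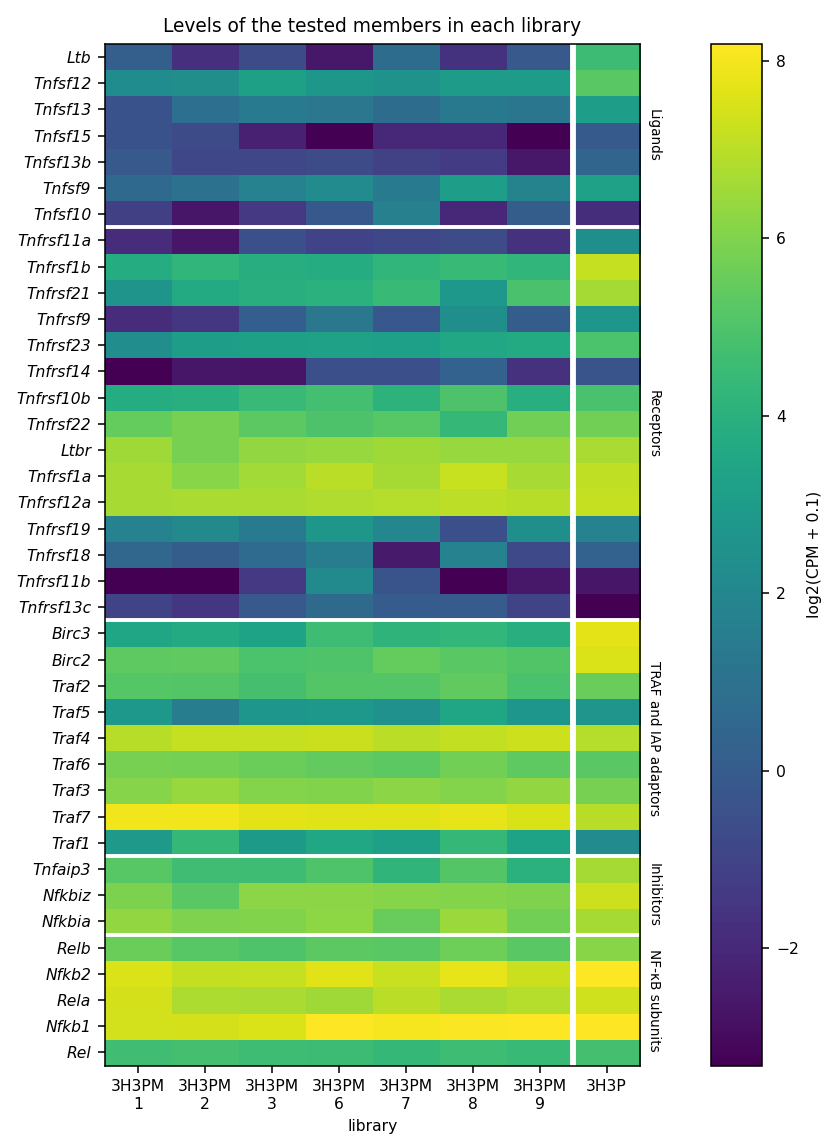
Levels of the 39 tested members as log2(CPM + 0.1), with 1 column per library (7 subclones at the left, the 3H3P library at the right) and rows grouped by role and ordered by log2 fold change. Birc2, Birc3, Tnfrsf1b and Tnfrsf21 are bright in the 3H3P column and darker in all 7 subclones. Traf7 is bright in every column, at 123 CPM in 3H3P and 183 to 248 CPM in the subclones.

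Most ligand genes were low or absent in all libraries. Tnf, encoding the founding cytokine of the family, had 4 counts over all 7 subclones and 0 in the library labelled 3H3P, where a count of 0 allows up to 0.187 CPM. Lta, Fasl, Tnfsf4, Tnfsf11 (RANKL), Tnfsf14 and Tnfsf18 had 0 to 4 counts in each group, and Tnfsf8 had none. These 8 ligands were not tested.

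Among the 7 ligands tested 3 fell (42.9%) and none rose, against 11.8% and 7.33% of all genes. Ltb, the membrane anchor of lymphotoxin (ENSMUSG00000024399.5, GRCm38 chromosome 17, 35194439 to 35196320), was at 0.0662, 0.549 and 1.60 CPM in the lowest, median and highest subclone, against 24.0 CPM in the library labelled 3H3P. All 7 subclones lay far below that library, and they differed among themselves, with subclone 7 highest and subclone 6 lowest (1 count). The log2 fold change was −5.22 (SE 0.81, edgeR adjusted p = 0.00312).

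Tnfsf12, encoding TWEAK, a cytokine that drives expansion of liver progenitor cells (ENSMUSG00000097328.7, chromosome 11, 69686250 to 69695849), was at 4.80, 6.76 and 9.23 CPM in the lowest, median and highest subclone, against 38.5 CPM in the library labelled 3H3P. Every subclone was below it, with a log2 fold change of −2.49 (SE 0.31, edgeR adjusted p = 0.00116). Its neighbour Tnfsf13, encoding APRIL, a survival factor of plasma cells, was at 0.651, 2.22 and 2.53 CPM in the lowest, median and highest subclone, against 8.40 CPM in the library labelled 3H3P (log2 fold change −2.13, SE 0.52, adjusted p = 0.0227; 0.0572 on log2(TPM + 0.1)). The 2 values are not independent, because the read-through gene Tnfsfm13 overlaps both on the same strand. In GENCODE transcripts, 46.8% of the 50-base windows of Tnfsf12 and 57.3% of those of Tnfsf13 also occur in Tnfsfm13, so RSEM had to divide their reads.

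The other tested ligands did not pass. Tnfsf9, encoding the 4-1BB ligand, was at 1.42, 3.29 and 8.30 CPM in the lowest, median and highest subclone, against 9.39 CPM in the library labelled 3H3P (log2 fold change −1.36, SE 0.70, edgeR adjusted p = 0.207). All subclones were below that library, but subclone 8 came close to it. Tnfsf10, encoding TRAIL, a death ligand, was at 0.0639, 0.355 and 3.13 CPM in the lowest, median and highest subclone, against 3 counts (0.187 CPM) in the library labelled 3H3P, a ratio of 4.06 with a 95% counting interval of 1.34 to 20.1 (adjusted p = 0.491). The groups overlapped, since 2 subclones were below that library, and subclone 7 held 41 of the 81 subclone counts. Tnfsf13b (BAFF) and Tnfsf15 were at most at 0.829 and 0.651 CPM in the subclones, against 1.24 and 0.871 CPM in the library labelled 3H3P.

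**Figure D2:**
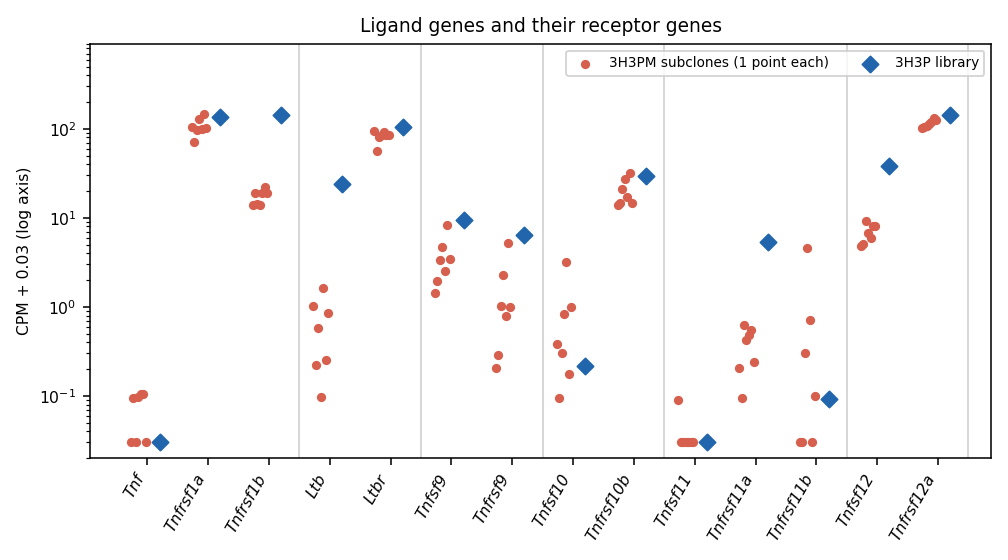
CPM + 0.03 (log axis) of 6 ligand genes beside their receptor genes, with 1 point for each of the 7 subclones and a diamond for the 3H3P library. Tnf and Tnfsf11 sit at or near 0, and the RANKL receptor gene Tnfrsf11a is under 1 CPM in the subclones. Tnfrsf1a is at 71.2 to 148 CPM and Tnfrsf1b at 14.04 to 21.9 CPM in the subclones, against 135 and 144 CPM in 3H3P. Ltb and Tnfsf12 drop in the subclones. Ltbr and Tnfrsf12a are at 56.4 to 93.9 and 102.5 to 133 CPM there, below 106 and 145 CPM in 3H3P, and were not called.

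Of 15 receptors tested 4 were lower (26.7%) and 1 was higher (6.67%) in the subclones, against 11.8% and 7.33% of all genes, and for 8 (53.3%) the library labelled 3H3P lay outside the range of the subclones, against 57.4%. Of the 2 receptors of TNF itself, Tnfrsf1b fell and Tnfrsf1a was not called, and the difference between these changes was not tested. Tnfrsf1a, the death-domain receptor found on most cells (ENSMUSG00000030341.17, chromosome 6, 125349362 to 125362484), was at 71.2, 102.8 and 148 CPM in the lowest, median and highest subclone, against 135 CPM in the library labelled 3H3P. That library lay inside the range of the subclones, with subclone 8 above it, and the log2 fold change of −0.33 had an SE of 0.30 (edgeR adjusted p = 0.482). Tnfrsf1b, a receptor without a death domain that signals through TRAF2 (ENSMUSG00000028599.10, chromosome 4, 145213463 to 145246870), was at 14.04, 18.9 and 21.9 CPM in the lowest, median and highest subclone, against 144 CPM in the library labelled 3H3P. The subclones were close together and all far below that library, with a log2 fold change of −3.05 (SE 0.22, edgeR adjusted p = 8.58e-05). Per transcript length, the median subclone had 80.4 TPM of Tnfrsf1a and 7.68 TPM of Tnfrsf1b, and the library labelled 3H3P had 98.5 and 55.0 TPM.

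Tnfrsf11a, encoding RANK, the receptor of RANKL, was at 0.0639, 0.397 and 0.604 CPM in the lowest, median and highest subclone, against 5.29 CPM in the library labelled 3H3P (log2 fold change −3.90, SE 0.68, edgeR adjusted p = 0.00525). It passed the filter through that library alone, and the subclones held 37 counts in all. Tnfrsf11b, the soluble RANKL decoy osteoprotegerin, had 83 counts over the subclones, of which subclone 6 held 68 (4.50 CPM) and 3 subclones held 0, against 1 count in the library labelled 3H3P. Its ratio of 12.5 had a 95% counting interval of 2.18 to 499 and its adjusted p was 0.529.

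Tnfrsf21, encoding death receptor 6 (ENSMUSG00000023915.5, chromosome 17, 43016555 to 43089189), was at 6.22, 15.5 and 29.5 CPM in the lowest, median and highest subclone, against 98.8 CPM in the library labelled 3H3P. All subclones lay below it although they spanned 4.74-fold, with subclones 1 and 8 lowest and subclone 9 highest (log2 fold change −2.66, SE 0.57, edgeR adjusted p = 0.0127). The TRAIL death receptor gene Tnfrsf10b was at 13.8, 17.2 and 31.5 CPM in the lowest, median and highest subclone, against 29.5 CPM in the library labelled 3H3P. Subclone 8 was above that library and the others below, and the log2 fold change of −0.56 (SE 0.43) did not pass (adjusted p = 0.392).

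The mouse TRAIL decoy receptor genes Tnfrsf22 and Tnfrsf23 stand next to each other on chromosome 7 and lack a death domain. Tnfrsf23 was at 4.92, 9.23 and 13.0 CPM in the lowest, median and highest subclone, against 30.7 CPM in the library labelled 3H3P, lower in all 7 (log2 fold change −1.71, SE 0.37, edgeR adjusted p = 0.0131; 0.0525 on log2(TPM + 0.1)). Tnfrsf22 was at 20.3 to 56.2 CPM in the subclones and 53.1 CPM in that library, which lay within their range (adjusted p = 0.541). These genes share sequence, since 17.3% of the 50-base windows of Tnfrsf22 occur in Tnfrsf23 and 18% of those of Tnfrsf23 in Tnfrsf22, so the division of reads between them is uncertain. Tnfrsf26, next to them, was not tested, with 28 counts over the subclones and 9 in the 3H3P library.

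Tnfrsf12a, encoding Fn14, the receptor of TWEAK, was the member with the highest TPM in both groups, with a median of 222 TPM in the subclones and 269 TPM in the library labelled 3H3P. It was at 102.5, 115 and 133 CPM in the lowest, median and highest subclone, against 145 CPM in that library. All 7 subclones were below it by a small margin, which did not pass the test (log2 fold change −0.33, SE 0.17, edgeR adjusted p = 0.209). Ltbr, the lymphotoxin receptor gene, was at 56.4, 85.5 and 93.9 CPM in the lowest, median and highest subclone, against 106 CPM in the library labelled 3H3P (log2 fold change −0.35, SE 0.24, adjusted p = 0.327). The ligand genes Ltb and Tnfsf12 thus fell while their receptor genes did not pass, and the difference between ligand and receptor was not tested.

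Only Tnfrsf13c among the receptors tested was called higher by edgeR, at a low level, and it passed the filter through the subclones alone. It encodes the BAFF receptor of B cells, and had 78 counts over the subclones, at 0.256, 0.824 and 1.46 CPM in the lowest, median and highest, against 0 counts in the library labelled 3H3P, at least 3.91-fold higher (adjusted p = 0.0409). Its call was lost without subclone 3, 7 or 8 (adjusted p = 0.0672, 0.0599 and 0.0528), with no filter on low counts (0.0515), by limma-voom (0.0917) and on log2(TPM + 1) (0.151). The remaining receptors were lowly expressed: Tnfrsf9, Tnfrsf14, Tnfrsf18 and Tnfrsf19 were tested without passing, Tnfrsf4, Tnfrsf8 and Tnfrsf25 had 1 to 24 counts over the subclones, and Tnfrsf13b and Tnfrsf17 had none in any library. Tnfrsf8, with 1 count over the subclones and 5 in the library labelled 3H3P, was called lower with no filter on low counts (adjusted p = 0.0463).

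**Figure D3:**
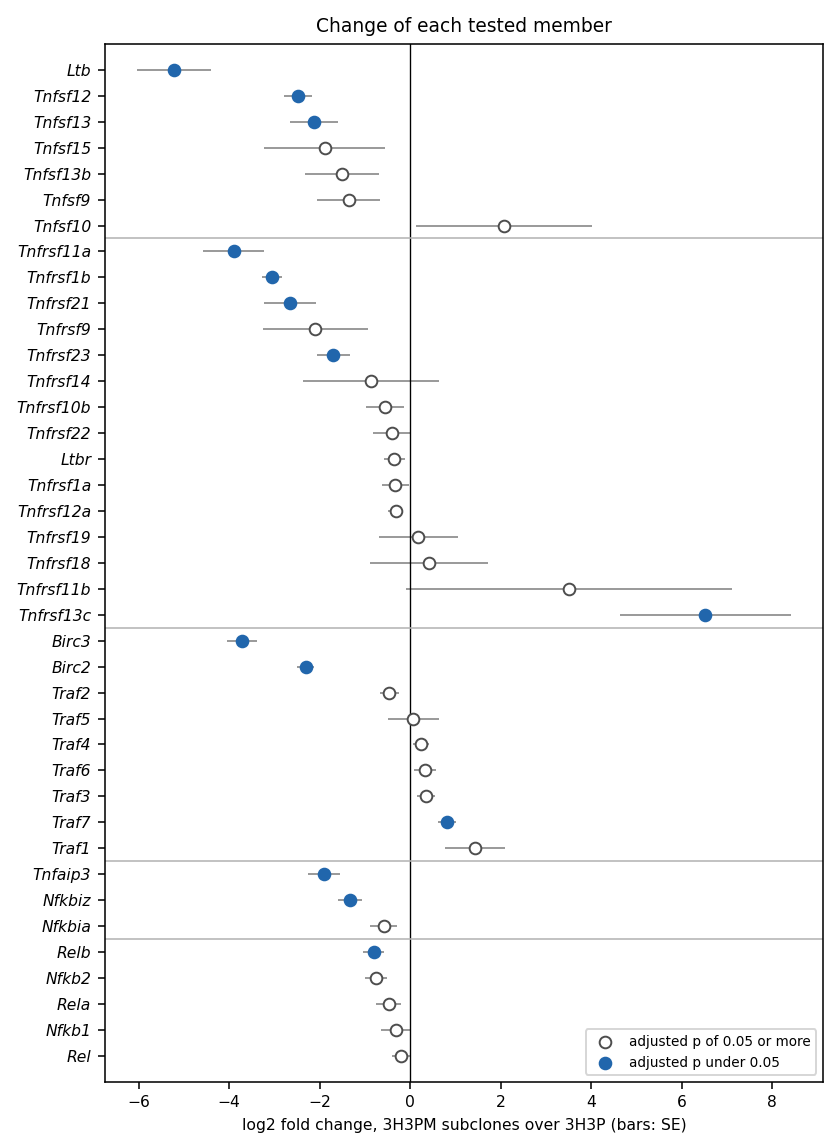
Log2 fold change of each of the 39 tested members (subclones over the 3H3P library) with its standard error as a bar, grouped from ligands at the top to NF-κB subunits at the bottom; filled points have an edgeR adjusted p under 0.05. Of the 14 filled points 12 lie left of 0, and the point of Tnfrsf13c is a fitted value against 0 counts that depends on the prior count.

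Of the 9 adaptors tested 2 were lower (22.2%) and 1 was higher (11.1%) in the subclones, against 11.8% and 7.33% of all genes. With 9 genes, these shares say little. Both lower genes encode cIAP proteins, and of the TRAF genes only Traf7 was called. Birc2, encoding cIAP1 (ENSMUSG00000057367.12, chromosome 9, 7818227 to 7837064), was at 30.3, 37.9 and 44.8 CPM in the lowest, median and highest subclone, against 185 CPM in the library labelled 3H3P. The subclones lay within 1.48-fold of each other and all were below that library (log2 fold change −2.31, SE 0.19, edgeR adjusted p = 0.000166). Birc3, encoding cIAP2 and adjacent to Birc2 (ENSMUSG00000032000.17, chromosome 9, 7848699 to 7873186), was at 9.99, 15.5 and 24.2 CPM in the lowest, median and highest subclone, against 210 CPM in the library labelled 3H3P. Again every subclone was below, by 13.2-fold in the fit (log2 fold change −3.72, SE 0.33, adjusted p = 0.000256). On the TPM scale Birc3 had 149 TPM in the library labelled 3H3P, above Birc2 at 103 TPM, and 12.8 TPM in the median subclone, below Birc2 at 19.98 TPM.

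Traf7, which encodes a WD-repeat member of the TRAF family (ENSMUSG00000052752.15, chromosome 17, 24508562 to 24527938), was the sole adaptor called higher. It was at 183, 213 and 248 CPM in the lowest, median and highest subclone, against 123 CPM in the library labelled 3H3P, above it in all 7 subclones (log2 fold change 0.80, SE 0.20, edgeR adjusted p = 0.0224). Traf1, an adaptor gene that NF-κB itself induces, was also above that library in all 7 subclones, at 7.40, 10.1 and 20.5 CPM in the lowest, median and highest, against 4.60 CPM. The subclones spread widely, with subclones 2 and 8 highest, and its log2 fold change of 1.44 (SE 0.66) did not pass (adjusted p = 0.162). Traf2, which recruits the cIAP proteins, was at 27.8, 34.4 and 41.9 CPM in the lowest, median and highest subclone, against 46.9 CPM in the library labelled 3H3P (log2 fold change −0.46, SE 0.21, adjusted p = 0.163). Traf3, Traf4, Traf5 and Traf6 had log2 fold changes of 0.35, 0.24, 0.07 and 0.33 without passing (adjusted p of 0.249 to 0.945).

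Of the 3 genes grouped here as inhibitors of NF-κB, 2 fell in the subclones, where 11.8% of all genes were called lower. The grouping is by symbol, and whether their products restrain NF-κB in these cells was not tested. Tnfaip3, encoding the ubiquitin-editing enzyme A20 (ENSMUSG00000019850.11, chromosome 10, 19000910 to 19015657), was at 16.3, 24.9 and 36.7 CPM in the lowest, median and highest subclone, against 99.9 CPM in the library labelled 3H3P. All subclones were below it (log2 fold change −1.90, SE 0.35, edgeR adjusted p = 0.00721). Nfkbiz, encoding the nuclear IκBζ, was at 37.8, 65.8 and 73.1 CPM in the lowest, median and highest subclone, against 159 CPM there (log2 fold change −1.34, SE 0.27, adjusted p = 0.00922). Nfkbia, encoding IκBα, was at 45.4, 63.5 and 87.2 CPM in the lowest, median and highest subclone, against 100.4 CPM in the library labelled 3H3P. All 7 subclones were below that library here too, but the log2 fold change of −0.59 (SE 0.29) did not pass (adjusted p = 0.194).

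The NF-κB subunit genes were expressed in every library. In the subclones 1 of 5 (20%) was called lower and none higher, against 11.8% and 7.33% of all genes. With 5 genes, this share says little. Relb, a subunit of the non-canonical pathway that lymphotoxin and RANK receptors activate, was at 32.9, 38.1 and 50.7 CPM in the lowest, median and highest subclone, against 71.2 CPM in the library labelled 3H3P (log2 fold change −0.81, SE 0.23, edgeR adjusted p = 0.0373). Its call did not survive leaving out subclone 2, 3, 6, 7 or 9, which gave adjusted p of 0.0527, 0.0580, 0.0634, 0.0577 and 0.0614. The Relb call was also lost with no filter on low counts and on log2(TPM + 1) and log2(TPM + 0.1). Nfkb2, whose p100 product is processed to p52 in that pathway, was at 141, 156 and 219 CPM in the lowest, median and highest subclone, against 290.2 CPM in the library labelled 3H3P (log2 fold change −0.76, SE 0.24, adjusted p = 0.0544). Without subclone 8 its adjusted p was 0.0294, and by DESeq2 it was 0.0333. Psd overlaps Nfkb2 on the opposite strand, with 8.46 CPM for 3H3P.

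Rela, encoding p65, was at 92.7, 110.5 and 176 CPM in the lowest, median and highest subclone, against 167 CPM in the library labelled 3H3P, and subclone 1 was above that library (log2 fold change −0.48, SE 0.28, edgeR adjusted p = 0.261). Without subclone 1 the log2 fold change was −0.60 and Rela was called (adjusted p = 0.0481). Nfkb1, the precursor gene of p50, was at 171, 260.1 and 290.2 CPM in the lowest, median and highest subclone, against 293 CPM in the library labelled 3H3P. Subclones 6 to 9 reached 260.1 to 290.2 CPM and subclones 1 to 3 stayed at 171 to 184 CPM (adjusted p = 0.519). Rel was the most even of the 5 over the subclones, at 20.01, 24.7 and 27.9 CPM in the lowest, median and highest, against 27.6 CPM (adjusted p = 0.547).

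Several of these genes are themselves known targets of NF-κB, so their promoters were read for its recognition motif. RefSeq promoter windows of 300 bases (GRCm38.p6, 250 bases before and 50 after each annotated start) were found for 43 of the 53 members. The 10-base κB consensus was searched on both strands, and a match that reads on both strands was counted once. It occurred in 21.6% of the 51 member windows, against 8.46% of the 32851 windows of all genes. By gene it occurred in 9 of 43 members (20.9%), against 9.55% of all genes. Windows are not independent, since 2 of the Nfkb2 windows overlap and hold the same GGGACTTTCC. Among members with a window, 22.2% of the genes called lower and 25% of those tested and not called had a match. The 7 tested genes with a match were Ltb, Nfkb2, Nfkbia, Rel, Tnfaip3, Tnfrsf9 and Traf3, of which Ltb and Tnfaip3 were called lower and 5 were not called. A match describes the sequence only. The windows of the 2 called genes and of Nfkbia and Nfkb2 are shown for comparison, 5′ to 3′ along the gene's strand, with κB matches in capitals. They are Ltb (chr17:35194257-35194556, plus strand), 1 of the 2 Tnfaip3 starts (chr10:19015361-19015660, minus strand; the other window has 0 matches), Nfkbia (chr12:55492598-55492897, minus strand) and 1 of the 3 Nfkb2 starts (chr19:46304487-46304786, plus strand).
Ltb: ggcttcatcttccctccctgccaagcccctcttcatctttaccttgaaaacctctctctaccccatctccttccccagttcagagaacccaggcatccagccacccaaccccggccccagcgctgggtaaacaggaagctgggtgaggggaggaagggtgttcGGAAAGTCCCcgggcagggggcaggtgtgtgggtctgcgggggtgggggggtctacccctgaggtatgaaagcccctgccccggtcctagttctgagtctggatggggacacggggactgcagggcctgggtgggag
Tnfaip3: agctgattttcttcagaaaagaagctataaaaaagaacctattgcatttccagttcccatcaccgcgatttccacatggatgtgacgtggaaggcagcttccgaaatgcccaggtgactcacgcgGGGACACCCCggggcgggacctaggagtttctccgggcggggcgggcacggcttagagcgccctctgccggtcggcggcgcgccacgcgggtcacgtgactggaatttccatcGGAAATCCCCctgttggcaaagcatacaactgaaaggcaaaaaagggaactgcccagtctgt
Nfkbia: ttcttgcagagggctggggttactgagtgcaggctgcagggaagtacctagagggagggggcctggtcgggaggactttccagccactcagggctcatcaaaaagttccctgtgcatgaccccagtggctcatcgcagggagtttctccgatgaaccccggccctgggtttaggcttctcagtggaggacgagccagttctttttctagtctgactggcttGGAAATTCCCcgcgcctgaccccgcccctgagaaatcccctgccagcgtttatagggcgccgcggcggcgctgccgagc
Nfkb2: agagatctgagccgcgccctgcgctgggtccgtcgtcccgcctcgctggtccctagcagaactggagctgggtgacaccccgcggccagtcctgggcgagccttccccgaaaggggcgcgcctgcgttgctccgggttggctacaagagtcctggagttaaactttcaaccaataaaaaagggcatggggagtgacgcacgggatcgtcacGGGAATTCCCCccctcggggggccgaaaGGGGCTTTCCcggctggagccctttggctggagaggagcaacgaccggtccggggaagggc
The single match of Ltb, GGAAAGTCCC, begins 87 bases before the start, and that of Nfkbia, GGAAATTCCC, 29 bases before it. Tnfaip3 has GGGACACCCC at 125 and GGAAATCCCC at 12 bases before the start. The Nfkb2 window has the overlapping matches GGGAATTCCC and GGAATTCCCC at 39 and 38 bases and GGGGCTTTCC at 11 bases before the start.

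Other genes of the pathway were counted by 3 lists, which were chosen with earlier results of these data known. Superfamily genes with other names were mostly not expressed: 6 of 10 were not tested, and of the 4 tested 3 were lower and none higher, against 11.8% and 7.33% of all genes. Eda and Eda2r passed the filter through the library labelled 3H3P alone, so they had to differ, and their calls and the list's median (log2 fold change −5.05) support nothing. Eda, encoding the ligand ectodysplasin, had 3 counts over the subclones and 181 in the library labelled 3H3P, 401-fold lower per library, with a 95% counting interval of 135 to 1964 (edgeR adjusted p = 0.000447). The receptor gene Eda2r had 11 counts over the subclones and 764 in the library labelled 3H3P (adjusted p = 0.000524). The death receptor gene Fas was at 8.31, 12.3 and 31.3 CPM in the lowest, median and highest subclone, against 52.8 CPM in the library labelled 3H3P (log2 fold change −1.83, SE 0.53, adjusted p = 0.0400). The call of Fas did not survive leaving out subclone 1, 2, 3, 6, 8 or 9, which gave adjusted p of 0.0592, 0.0526, 0.0644, 0.0647, 0.0524 and 0.0569. It was also lost on log2(TPM + 1) and log2(TPM + 0.1). In each of these settings 2 genes of this list were lower.

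Of 25 adaptor, kinase and ubiquitin regulator genes 24 were tested, and 5 (20.8%) were lower and none higher, against 11.8% and 7.33% of all genes, with a median log2 fold change of −0.52. The 20.8% called in either direction was near the 19.1% of all genes. The IκB kinase-related gene Ikbke was at 8.05, 11.9 and 20.5 CPM in the lowest, median and highest subclone, against 115 CPM in the library labelled 3H3P (log2 fold change −3.16, SE 0.39, edgeR adjusted p = 0.00107). Casp8, the initiator caspase of death receptors, and Ripk1, the kinase at the TNF receptor, fell by 1.27 and 0.97 on the log2 scale (adjusted p = 0.00449 and 0.0138). Tab1, a partner of the TAK1 kinase, fell by 1.01 (adjusted p = 0.00876). Nfkbib, encoding IκBβ, had a log2 fold change of −0.79 (adjusted p = 0.0423), and the call did not survive leaving out subclone 1, 2, 3, 7 or 9 (0.0549, 0.0584, 0.0728, 0.0511 and 0.0671). The Nfkbib call was also lost with no scaling beyond library size and with no filter on low counts. The necroptosis kinase gene Ripk3 had 1 count over the subclones and 0 in the library labelled 3H3P.

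Genes that NF-κB is known to induce were lower in larger number. As this list was chosen with earlier results of these data known, its share describes the listed genes and supports nothing about the pathway. Of 34 listed 30 were tested, and 16 (53.3%) were lower and 1 (3.33%) higher, against 11.8% and 7.33% of all genes, with a median log2 fold change of −1.82. On log2(TPM + 1) and log2(TPM + 0.1) the number lower was 9 and 8. Bcl3, an atypical IκB gene, was at 28.1, 32.8 and 41.2 CPM in the lowest, median and highest subclone, against 94.1 CPM in the library labelled 3H3P (log2 fold change −1.49, SE 0.21, edgeR adjusted p = 0.00178). Nfkbie, encoding IκBε, and Tnip1, encoding a partner of A20, fell by 1.64 and 2.06 on the log2 scale (adjusted p = 0.00356 and 0.00429). The complement gene C3 was at 83.6, 155 and 541 CPM in the lowest, median and highest subclone, against 3649 CPM (adjusted p = 0.00356), and Bcl2l1, encoding the survival protein BCL-xL, fell by 1.11 (adjusted p = 0.00497). The higher gene was Plau, encoding urokinase and named after its value was seen, at 23.5, 56.2 and 138 CPM in the lowest, median and highest subclone, against 4.92 CPM. The call of Plau (log2 fold change 3.80, SE 1.13, adjusted p = 0.0444) was lost without subclone 3, 6, 7 or 9, where 0 genes of the list were called higher by edgeR. Of the 30 tested genes 7 had a log2 fold change above 0. The uncalled ones among them were Cxcl2 (1.75), Cxcl10 (1.53), Ier3 (1.45), Ccl5 (1.38), Irf1 (0.07) and Nfkbid, which had 105 counts over the subclones and 3 in the library labelled 3H3P. The remaining uncalled genes lay below 0, among them Cxcl1 and Ptgs2 at −2.17 and −1.79. On the same scale the 5 subunit genes had values of −0.81 to −0.20.

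**Figure D4:**
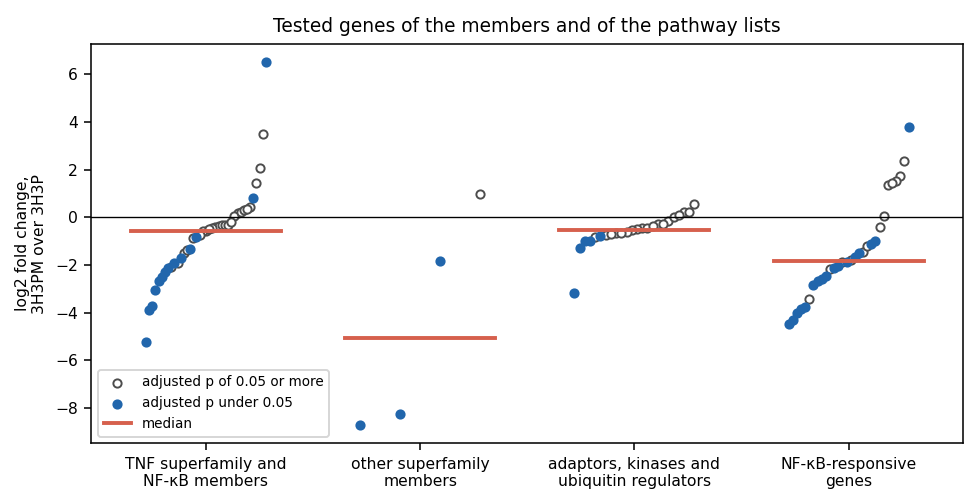
Log2 fold change (subclones over the 3H3P library) of every tested gene among the members and in the 3 pathway lists, with filled points at an edgeR adjusted p under 0.05 and a line at each median. The medians of the 39 members, the 24 adaptor and kinase genes and the 30 NF-κB-responsive genes are −0.56, −0.52 and −1.82.

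The members also differed between the subclones. The SD of log2 CPM over the 7 subclones had a median of 0.45 over the tested members and 0.32 over all genes tested. By role it was 0.81 for ligands, 0.70 for receptors, 0.21 for adaptors, 0.33 for inhibitors and 0.26 for subunits. Many ligand and receptor genes were also low in level, where counting error is larger. The 6 widest among members with a mean CPM of 1 or more were Tnfrsf9, Tnfrsf18, Ltb, Tnfrsf19, Tnfrsf21 and Tnfsf9. Ltb reached that mean through the library labelled 3H3P, since its mean over the subclones was 0.639 CPM.

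Tnfrsf9, encoding 4-1BB, ranged from 0.178 CPM in subclone 1 (95% Poisson interval 0.0366 to 0.519) to 5.19 CPM in subclone 8 (4.04 to 6.55), against 6.47 CPM for 3H3P. It was not called (log2 fold change −2.10, SE 1.16, adjusted p = 0.237), although limma-voom gave 0.0473. Camta1, on the opposite strand, overlaps Tnfrsf9, with 6.60 CPM for 3H3P. Its ligand gene Tnfsf9 had the same lowest and highest subclones, with 1.42 CPM (0.911 to 2.11) in subclone 1 and 8.30 CPM (6.83 to 9.99) in subclone 8. Tnfrsf18, encoding GITR, ranged from 0.0764 CPM (1 count) in subclone 7 to 3.34 CPM in subclone 8, around 1.12 CPM in the library labelled 3H3P. Tnfrsf19, a receptor gene known as TROY, went the other way in subclone 8, with 0.593 CPM (0.256 to 1.17) there and 6.69 CPM (5.45 to 8.13) in subclone 6, around 3.36 CPM in the library labelled 3H3P.

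Subclone 8 had the highest CPM for 13 of the 39 tested members (33.3%), against 20.4% of all genes, and subclone 1 the lowest for 13 (33.3%), against 20.9%. Among members highest in subclone 8 were Tnfrsf1a, Tnfrsf1b, Tnfrsf10b, Tnfrsf12a, Nfkbia, Nfkb2 and Relb. These are descriptions of single libraries, in which the isolate and its library cannot be told apart.

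**Figure D5:**
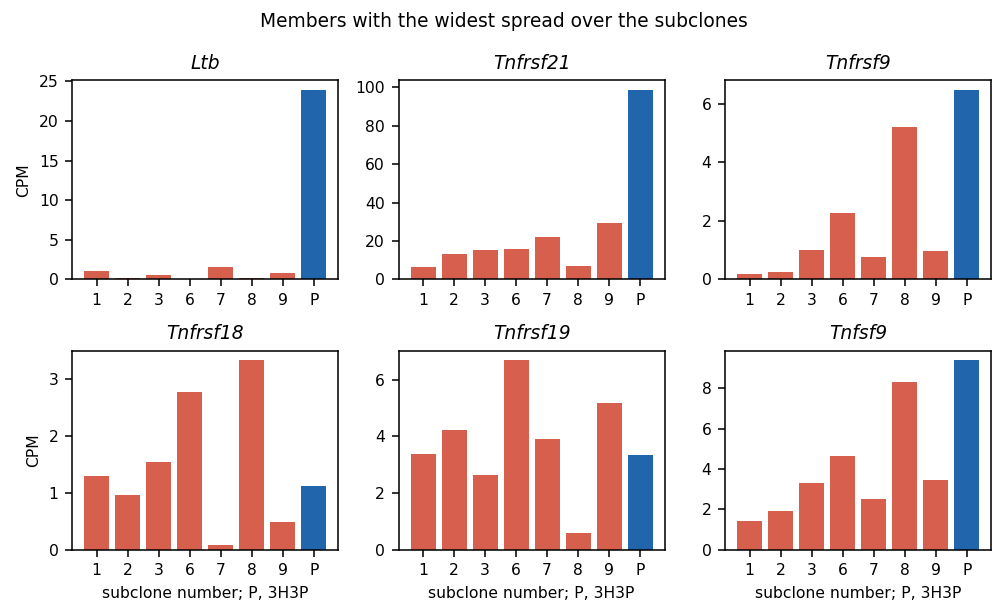
CPM of the 6 members with the widest spread over the subclones, with bars for subclones 1, 2, 3, 6, 7, 8 and 9 and, at the right, for the 3H3P library (P). Tnfrsf9, Tnfrsf18 and Tnfsf9 are highest among the subclones in subclone 8 (5.19, 3.34 and 8.30 CPM), where Tnfrsf19 is lowest (0.593 CPM).

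Many members lie in clusters of related genes, and neighbours did not always share a call. Birc2 and Birc3 on chromosome 9 both fell, and so did Tnfsf12 and Tnfsf13 on chromosome 11. On chromosome 17, Ltb fell while its neighbours Tnf and Lta had 4 counts each over the subclones. Tnfrsf1a and Ltbr, both on chromosome 6, were not called. On chromosome 4 (GRCm38) Tnfrsf1b fell, whereas Tnfrsf18 was not called and Tnfrsf4, beside it, was not tested. The 12 lower members had log2 fold changes of −5.22 to −0.81. On their chromosomes, the median log2 fold change of all tested genes ran from −0.27 on chromosome 7 to 0.37 on chromosome 4. It was −0.49 on chromosome 15, which holds Tnfrsf13c, called higher. A median over a whole chromosome cannot show a change limited to a few neighbouring genes, and copy number was not tested.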

How the data were processed

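RNA-seq of 8 libraries was used, 7 of 3H3PM subclones and 1 of 3H3P. Per the submitters' processing notes, the tools were STAR, RSEM, FastQC and DESeq2 and the build was GRCm38 (mm10); no source used here gives their versions or the strand setting, while the library kit marks strand per the labels' protocols. RSEM made each expected count that the authors deposited, sharing out reads that fit more than 1 gene. The authors' TPM served for levels between genes and for alternatives, and the authors' FPKM was left untested.

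Expected counts were rounded and tested with edgeR 4.0.16 (R 4.3.3; glmQLFit and glmQLFTest) after filterByExpr and TMM scaling, over all genes, with Benjamini-Hochberg adjustment and a threshold of 0.05. The spread came from the 7 subclones (6 residual degrees of freedom), and the single 3H3P library is taken to vary like them. An exact permutation test of 1 against 7 libraries cannot go below p = 0.125. SE is the size of the log2 fold change divided by the square root of F. CPM is TMM-scaled. P-values set the distance of the single 3H3P library against the spread between isolates, each with 1 library. The isolates all derive from 3H3PM cells, so they are not independent repeats of making those cells.

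A count of 0 has an upper limit of 3 counts per library. Folds against 0 counts use that limit, and ratios over 1 to 3 counts come with exact binomial intervals at 95%. Intervals cover counting error only. Log2 CPM for spreads used a prior count of 2.

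Members and lists were chosen with earlier results of these data known. The rule for named genes took called members, the 6 with the widest spread, 18 fixed members and up to 5 called genes per pathway list; values of other members and of other list and marker genes were added after they were seen. Gene positions are from GENCODE vM21 (GRCm38), matched by unversioned gene ID, and promoters from RefSeq. Alternatives were RLE or no scaling, no filter or a mean CPM of 1, DESeq2 1.42.0, limma-voom and limma (3.58.1) on log2(TPM + 1) and log2(TPM + 0.1), unrounded counts, and each subclone left out.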

Additional observations from a re-analysis of the deposited data

Results flagged for a closer look

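In 5 of the 39 tested members, 1 subclone stood apart from the other 6 on the log2 CPM scale. The rule was a gap to its neighbour of more than 0.568 of the whole range. Chance flags about 1 in 20 groups if the values are normally distributed. The share of all tested genes flagged by this rule is not given, so 5 of 39 cannot be read as particular to these members. Ltbr was at 56.4 CPM in subclone 2 and 81.1 to 93.9 CPM in the others (gap 0.712 of the range). Nfkbiz was at 37.8 CPM in subclone 2 and 60.3 to 73.1 CPM in the others (0.708). Tnfrsf19 was at 0.593 CPM in subclone 8, from 8 counts, and 2.64 to 6.69 CPM in the others (0.598). Tnfrsf23 was at 4.92 CPM in subclone 1 and 8.56 to 13.0 CPM in the others (0.568, barely past the limit). Tnfsf13 was at 0.651 CPM in subclone 1, from 11 counts, and 1.60 to 2.53 CPM in the others (0.652). In all 5 the subclone that stood apart was the lowest.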

How the results depend on the processing

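Under the 16 alternatives, 10 of the 14 called members were called wherever they were tested, and Relb, Tnfrsf13c, Tnfrsf23 and Tnfsf13 were not. Tnfrsf23 and Tnfsf13 missed the threshold on log2(TPM + 0.1) (adjusted p = 0.0525 and 0.0572). The number of members lower was 9 to 13 (11 to 13 with a subclone left out), from 12. The number higher, 2, was 1 with no filter, with a mean CPM of at least 1, by limma-voom and on log2(TPM + 1), and 1 to 2 with a subclone left out; these follow Tnfrsf13c. NF-κB-responsive genes higher, 1, were 2 by DESeq2 and on both TPM scales, 0 by limma-voom, and 0 to 2 with a subclone left out; those lower, 16, were 9 on log2(TPM + 1), 8 on log2(TPM + 0.1) and 11 to 18 with a subclone left out. The cause was not tested. Calls over all genes numbered 1991 to 2985 with a subclone left out. Among named genes the direction reversed for Tnfrsf18 (log2 fold change −0.13 by limma-voom and −0.067 on log2(TPM + 0.1)) and Tnfrsf19 (−0.074 by limma-voom and −0.018, without subclone 6, to 0.38, without subclone 8), neither of them called. The median SD over the subclones was 0.46 with a prior count of 0.5 and 0.32 on log2(TPM + 1). No paired analysis was possible because 3H3P has 1 library.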

Other observations

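Among the 30 tested NF-κB-responsive genes, 1 subclone was highest for most. Subclone 8 had the highest CPM for 18 of them (60%), against 20.4% of all genes, and subclone 2 the lowest for 14 (46.7%), against 17.7%. The acute phase gene Saa3 was at 1895 CPM in subclone 8 and 8.43 CPM in subclone 2, around 1193 CPM in the library labelled 3H3P. Lcn2, encoding lipocalin, was at 331 CPM in subclone 8 and 8.43 CPM in subclone 2, below 2217 CPM in that library. The neutrophil chemokine gene Cxcl5 was at 548 CPM in subclone 8 and 17.8 CPM in subclone 2, against 2097 CPM in the library labelled 3H3P. These genes and subclones were singled out after their values were seen, and no test was run.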
